A study of Mus musculus with 10 samples.

Results

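The 9 genes described here are a family of brakes on TGF-β signalling, namely Smad7, Smad6, Ski, Skil, Tgif1, Smurf1, Smurf2, Pmepa1 and Bambi. They were selected on values of these same CUT&Tag tables, their read counts per region and per gene, and every region assigned to them was taken, so the values below are descriptions, no test is given and nothing is supported by them. They stand among 22473 genes that were given at least 1 region in the 5 tables used, and they hold 337 of the listed regions, counting each table separately. Primary mouse cardiac fibroblasts served as control (NC) or were treated with TGF-β (TGF). Others were transfected with an siRNA against hexokinase 1, a glycolytic enzyme, and then treated with TGF-β (siHK1). The title of the NC library says control and names no treatment or antibody, and it was taken as H3K9lc from the table its label points to. Strain, sex and age of the mice and whether cells were pooled are not given in the labels. CUT&Tag cuts and tags DNA wherever an antibody sits, here antibodies to lactylated lysine 9 of histone H3 (H3K9lc) and to the transcription factors c-JUN, SMAD3 and NFATC2. There was 1 library per condition and antibody, so each statement compares libraries, and no difference has a replicate error.

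TGF-β binds a pair of receptor kinases at the cell surface, which phosphorylate SMAD2 and SMAD3, and these join SMAD4 and move to the nucleus. Several genes that SMAD complexes switch on encode proteins that dampen the same pathway. Smad7 and Smad6 are inhibitory SMADs that occupy the activated receptors, Smad6 mainly on the BMP side of the family. Ski, Skil (which encodes SnoN) and Tgif1 encode corepressors that sit on SMAD complexes at DNA. Smurf1 and Smurf2 are ubiquitin ligases that mark SMADs and receptors for breakdown. Pmepa1 encodes a membrane protein that holds SMAD2 and SMAD3 away from the receptor, and Bambi a pseudoreceptor with no kinase domain. In heart fibroblasts this pathway drives the switch to the matrix-producing myofibroblast.

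The sequences below are shown because they are the central 200 bases of SMAD3 regions of these genes that carried over 2-fold more signal in the siHK1 library, and of a pair of c-JUN regions upstream of Pmepa1 that carried less. They were read from RefSeq GRCm38 (mm10), plus strand, in lower case. Capitals mark CAGAC on either strand, the short SMAD-binding element, and the palindromic SMAD site GTCTAGAC, which does not contain CAGAC. None of the 6 windows holds the AP-1 site TGANTCA. Both the Smurf1 and the Skil windows lie at promoters, and the SMAD3 windows of Pmepa1 lie in an intron.
SMAD3, Pmepa1 intron, chr2:173263877-173264076: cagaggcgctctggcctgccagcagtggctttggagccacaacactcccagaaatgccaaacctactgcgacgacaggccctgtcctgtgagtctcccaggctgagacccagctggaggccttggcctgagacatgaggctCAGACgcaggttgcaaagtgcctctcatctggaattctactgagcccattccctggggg
SMAD3, Pmepa1 intron, chr2:173258025-173258224: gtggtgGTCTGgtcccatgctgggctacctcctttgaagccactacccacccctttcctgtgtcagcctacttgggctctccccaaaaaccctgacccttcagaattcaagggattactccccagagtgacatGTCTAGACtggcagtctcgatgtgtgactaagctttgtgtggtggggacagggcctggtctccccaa
SMAD3, Skil promoter, chr3:31094447-31094646: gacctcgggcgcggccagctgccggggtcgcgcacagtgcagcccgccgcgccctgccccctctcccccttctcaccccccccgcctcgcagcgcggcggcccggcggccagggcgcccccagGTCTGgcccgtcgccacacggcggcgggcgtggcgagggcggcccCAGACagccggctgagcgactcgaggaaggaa
SMAD3, Smurf1 promoter, chr5:144965059-144965258: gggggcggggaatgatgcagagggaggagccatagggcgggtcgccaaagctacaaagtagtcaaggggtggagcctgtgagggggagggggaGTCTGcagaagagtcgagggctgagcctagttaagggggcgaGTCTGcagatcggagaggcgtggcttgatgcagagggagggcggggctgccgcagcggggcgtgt
c-JUN, Pmepa1 upstream, chr2:173338906-173339105: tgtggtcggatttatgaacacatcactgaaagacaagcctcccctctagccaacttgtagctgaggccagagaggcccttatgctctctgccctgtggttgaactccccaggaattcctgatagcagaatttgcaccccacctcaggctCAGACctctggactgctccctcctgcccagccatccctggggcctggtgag
c-JUN, Pmepa1 upstream, chr2:173334829-173335028: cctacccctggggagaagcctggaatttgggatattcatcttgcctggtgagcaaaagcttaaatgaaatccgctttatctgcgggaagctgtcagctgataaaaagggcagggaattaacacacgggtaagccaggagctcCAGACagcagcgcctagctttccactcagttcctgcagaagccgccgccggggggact

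Read numbers set what these libraries can show. Reads in listed regions ran from 115572 in the NC library to 4215447 in the c-JUN library of TGF-treated cells, and each TGF library was 1.41 to 1.86 times as deep as its siHK1 partner. Counts were therefore compared at equal totals, as log2 of the ratio of siHK1 to TGF with 0.5 reads added to each count, and 95% exact (Clopper-Pearson) intervals cover counting error only. In the TGF library, c-JUN peaks lay at the promoters of 9 of 10 fibroblast markers, against 2 of 7 for cardiomyocytes, 4 of 5 for endothelium, 3 of 5 for leukocytes and 1 of 4 for smooth muscle. The mean c-JUN level at these marker promoters was 26.0 reads per 1000000 listed reads for fibroblasts and 4.47 to 15.3 for the other lists in the TGF library, and 25.3 and 3.52 to 16.6 in the siHK1 library. Promoter peaks of the other antibodies marked only 2 or 3 of the 10 fibroblast genes. SMAD3 at cardiomyocyte marker promoters came to 40.1 reads per 1000000 per gene in TGF and 30.7 in siHK1, with peaks at 2 of 7, against 3.19 and 5.25 at fibroblast markers. SMAD3 was higher in siHK1 at endothelial markers (4 reads in TGF and 14 in siHK1) and leukocyte markers (6 and 8), and lower at smooth muscle markers (5 and 0), so some other lists moved with the SMAD3 values given below. NFATC2 came to 9.68 and 10.5 at cardiomyocyte markers and 5.73 and 8.46 at fibroblast markers. H3K9lc came to 5.14 and 3.95 at endothelial and 1.65 and 0.775 at fibroblast markers. With these 3 antibodies marker promoters thus did not follow the fibroblast label, and the part of other cell types in the values below was not tested. Fewer cells of a type and less signal per cell cannot be told apart in such bulk libraries.

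H3K9 lactylation was listed far from these genes and not at their starts. The H3K9lc table of TGF and siHK1 held 47 regions assigned to 7 of the 9 genes, and none for Ski or Tgif1. Of these, 46 lay between genes, 6.63 to 308 kb from the nearest start, and none at a promoter, whereas 65.3% of all 74751 listed regions lay between genes and 6.78% at promoters. Such regions carry a gene's name only because it was the nearest. Of the 47 regions Bambi held 20, 1 of them over an exon, and Pmepa1 14. The table of NC and TGF listed 2 promoter regions among 39, at Smad6 with 1 and 5 reads and at Ski with 1 and 0.

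Summed per gene, H3K9lc did not differ between the TGF and siHK1 libraries beyond counting error at any listed member, though Pmepa1 was lower when scaled to regions with a peak in both libraries. Bambi, the pseudoreceptor, had 424 reads in the TGF library and 235 in the siHK1 library (log2 ratio -0.04, 95% interval -0.28 to 0.19). Pmepa1 had 439 and 224 reads (log2 ratio -0.16, -0.40 to 0.08), and the ubiquitin ligase gene Smurf2 had 244 and 132 (log2 ratio -0.07, -0.39 to 0.24). The corepressor gene Skil had 150 and 108 reads, a log2 ratio of 0.34 (-0.03 to 0.70), most of them in a region 24.3 kb upstream that carried a peak in both libraries with 138 and 92 reads. Smad6 had 104 and 51 reads (log2 ratio -0.21), and Smad7 31 and 25 in a single region 37.3 kb downstream of its start (log2 ratio 0.51, -0.32 to 1.31). The most abundant single region had 149 and 80 reads at Smurf2 (-0.08), 59 and 33 at Bambi (-0.02) and 49 and 21 at Smad6 (-0.39), while that of Pmepa1, 21.7 kb upstream, was lower in siHK1 with 99 and 36 (-0.64, -1.24 to -0.08). Smurf1 had only 3 and 3 reads. The median over the 7 genes was -0.04, beside -0.05 over all genes. None of the 6 members with at least 20 reads had an interval apart from 0, where 8.86% of all such genes lay lower and 4.34% higher.

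Among single H3K9lc regions of these genes, 4 of 47 were past 2-fold lower in siHK1, beside 13.7% of all listed regions, and 3 were past 2-fold higher, beside 13.0%. No member region with at least 20 reads in 1 library passed 2-fold in either direction, out of 19, where 6.56% and 0.945% of all such regions did. The nearest was a Smad6 region at 115 kb with 22 and 6 reads (log2 ratio -0.98, -2.65 to 0.28). A Bambi region 32.5 kb downstream had 16 reads in the TGF library and 0 in siHK1, which is at least 3.04-fold lower when 3 reads are taken as the floor of the siHK1 library. By gene sums, 0 of the 6 members with at least 20 reads were past 2-fold, beside 2.25% lower and 0.71% higher of all such genes.

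Against control cells, H3K9lc could hardly be compared at these genes, because the NC library held 0 to 5 reads in every member region. The TGF library is the one compared with siHK1 above, so both comparisons share it. Over 39 regions the NC library had 38 reads and the TGF library 1203, and the NC library was 0.05 times as deep. Pmepa1 had 11 and 406 reads, a log2 ratio of TGF to NC of 0.82 (0.03 to 1.90), and Smurf2 4 and 239, a log2 ratio of 1.41 (0.20 to 3.47). Bambi had 12 and 338 reads (log2 ratio 0.44, -0.33 to 1.46), Skil 5 and 131 (0.26, -0.87 to 2.04), Smad6 3 and 79 (0.18, -1.20 to 2.70) and Smad7 2 and 10, while Ski had 1 read in NC and 0 in TGF. Of the 39 regions, 8 were past 2-fold lower and 7 higher, beside 24.9% and 14.7% of all listed regions. This balance turned with the processing, and it did so for all listed regions too. It was 6 and 19 when scaled to shared peaks (14.1% and 40.5% of all), 5 and 21 with the authors' normalised values (11.9% and 50.1%), and 14 and 3 with 1 read added (41.1% and 2.99%). Among the 17 with at least 20 reads these counts were 0 and 7, beside 7.49% and 34.0%. All 7 rested on 0 reads in NC (6 regions) or 1, and only 2 of those at 0 exceeded the 60.0 TGF reads that 3 NC reads would match. These were a Smurf2 region with 105 TGF reads, at least 1.75-fold higher, and a Pmepa1 region with 77, at least 1.28-fold higher. Of the 5 members with at least 20 reads, Pmepa1 and Smurf2 had intervals above 0 and none below, beside 6.73% and 1.29% of all such genes, and the interval of Bambi also lay above 0 when scaled to shared peaks. By gene sums 1 of 5 members, Smurf2, was past 2-fold higher and none lower, beside 19.7% and 5.93% of all genes with as many reads, but scaled to shared peaks all 5 were past 2-fold higher, from 1.01 at Smad6 to 2.24 at Smurf2, beside 54.3% of all such genes. At the members only the TGF library reached 20 reads, so this minimum itself favours higher values. It left out Smad7 (log2 ratio -2.25) and Ski (-5.91), both past 2-fold lower on few reads. All 3 Smurf2 regions of this table lie wholly in a repeat-masked stretch that was listed with every antibody.

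c-JUN, a subunit of the AP-1 factor, had a listed region at the promoters of all 9 genes, as it did at 11981 of the 16970 genes in its table. Its 102 member regions lay at promoters less often than all c-JUN regions (15 regions, 14.7%, beside 25.6%) and between genes more often (45 regions, 44.1%, beside 32.9%). The introns held 38, and a peak was marked in both libraries at 52. The promoter region of Smad7 had 162 reads in the TGF library and 77 in the siHK1 library (log2 ratio -0.18), that of Skil 201 and 93 (-0.22), and that of Ski 93 and 52 (0.06). The promoter region of Smad6 had 99 and 72 reads (log2 ratio 0.44, -0.03 to 0.89). The 4 promoter regions of Smurf1, which has several annotated starts, had 689 and 356 reads together (-0.06), and the 3 of Tgif1 had 253 and 115 (-0.24). Promoter signal was thinner at Bambi, with 51 and 33 reads (0.27), and at Smurf2, with 39 and 23 (0.14). The pair of Pmepa1 promoter regions had 146 and 114 reads, a log2 ratio of 0.54 (0.17 to 0.90), and were the only promoter sum of the 9 genes whose interval lay apart from 0. Per kb and per 1000000 listed reads, promoter c-JUN in the TGF library was 62.2 at Smurf1, 49.5 at Smad7, 37.6 at Ski and 34.6 at Tgif1, and lowest at Smurf2 (11.6) and Bambi (12.2). The Smurf1 value rests on 1 region at an internal start, with 444 of the 689 reads, and is 31.4 without it, below the other 3.

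Summed over all regions of a gene, c-JUN lay close to equal in both libraries at each member. The log2 ratios ran from -0.15 at Smad7 (737 and 357 reads) to 0.18 at Smurf2 (546 and 334 reads), with a median of -0.07 beside -0.02 over the 15018 genes with at least 20 reads. The interval included 0 for 8 of 9 genes, where 12.9% of all such genes lay lower and 10.2% higher. Scaled to shared peaks, Smad7 lay below 0 as well. The exception at equal totals was Pmepa1, the gene with the most c-JUN reads, whose 2579 and 1282 reads gave a log2 ratio of -0.12 (-0.21 to -0.02). Smad6 had 1107 and 651 reads (0.13), Smurf1 1055 and 574 (0.01), Ski 697 and 357 (-0.07), Bambi 495 and 262 (-0.02), Tgif1 326 and 162 (-0.11) and Skil 306 and 156 (-0.08). None passed 2-fold, where 2.53% of all such genes did so downward and 0.846% upward.

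**Figure D1:**
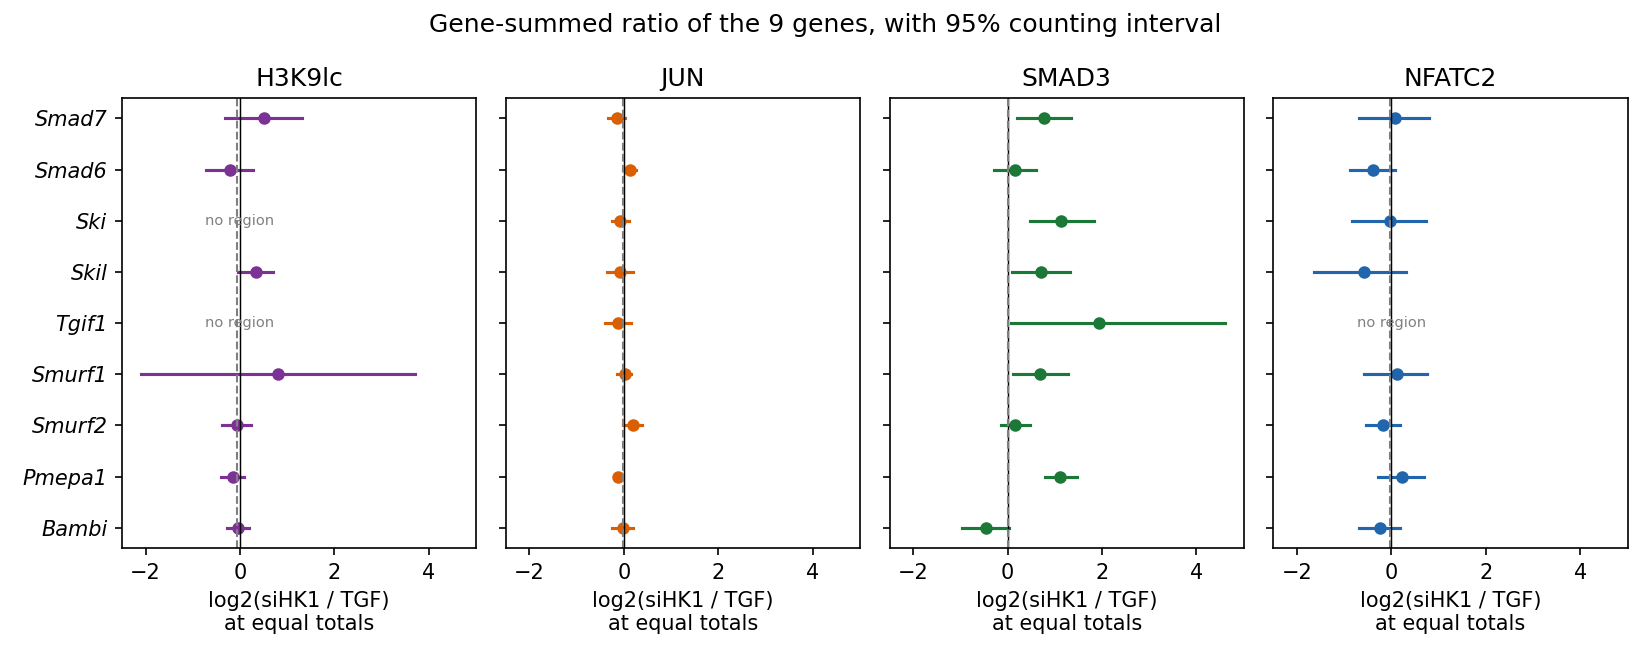
Points give log2 of siHK1 over TGF reads at equal totals (x axis) summed over all listed regions of each of the 9 genes (y axis), 1 panel per antibody. Bars are 95% counting intervals, the solid line is equality, the dashed line the median of all genes with at least 20 reads, and 1 library stands behind each side of a ratio. The c-JUN points sit between -0.15 and 0.18, whereas SMAD3 points lie at 1.12 for Pmepa1 and 1.13 for Ski, and the highest, Tgif1 at 1.94, rests on 12 reads.

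By reads, with no account of width, the most abundant c-JUN region of a gene was often not its promoter. It was the promoter at Skil, at Smurf1 (444 and 251 reads, log2 ratio 0.07) and at Tgif1 (125 and 57, -0.23). It lay in an intron at Ski (149 and 62 reads, -0.37) and at Pmepa1, where it is given below. It lay between genes at Smad7, at Smad6 (194 and 115 reads, 0.14), at Smurf2 (135 and 79, 0.12) and at Bambi (163 and 72, -0.28), the last of these 259 kb from the start. Per kb the order changes, since the Smad7 promoter (49.5 in TGF and 43.6 in siHK1) then stands above the intergenic region in TGF (40.1 and 43.7), and the Smurf2 region is among the lowest of that gene (11.4 and 12.4).

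Near-equal sums covered single c-JUN regions that differed sharply. Of the 102 regions, 10 were past 2-fold lower in siHK1 and 6 higher, beside 11.4% and 7.44% of all listed regions. Among the 84 with at least 20 reads, 6 were lower and 1 higher, beside 7.72% and 1.90%, so the member shares were near those of all regions. The largest was 22.8 kb downstream of the Smad7 start, in no annotated gene (chr18:75397760-75398662), with 123 reads in TGF and 7 in siHK1 (log2 ratio -3.15, -4.59 to -2.16). The other 7 Smad7 regions lay between -0.18 and 0.41, among them the next region downstream with 182 and 107 reads. In the plot of the Smad7 locus this region therefore stands alone.

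Upstream of Pmepa1, 3 neighbouring intergenic regions were lower together. At 62.2 kb (chr2:173338779-173339231) the reads were 52 and 8 (log2 ratio -1.73, -3.09 to -0.72). At 58.2 kb (chr2:173334744-173335113) they were 34 and 5 (-1.76, -3.59 to -0.51), and at 57.6 kb (chr2:173334149-173334474) 27 and 4 (-1.72, -3.84 to -0.34). All of them carried a peak in the TGF library alone. All 15 intergenic regions of Pmepa1 together had 1359 and 540 reads, and the 7 in introns 1074 and 628. The most abundant intronic regions were level, with 481 and 274 reads at 11.7 kb (0.08) and 331 and 181 at 17.4 kb (0.02), while an intronic region between them had 91 and 84 (0.78, 0.33 to 1.22). A further upstream region at 76.8 kb had 417 and 152 reads (log2 ratio -0.56).

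**Figure D2:**
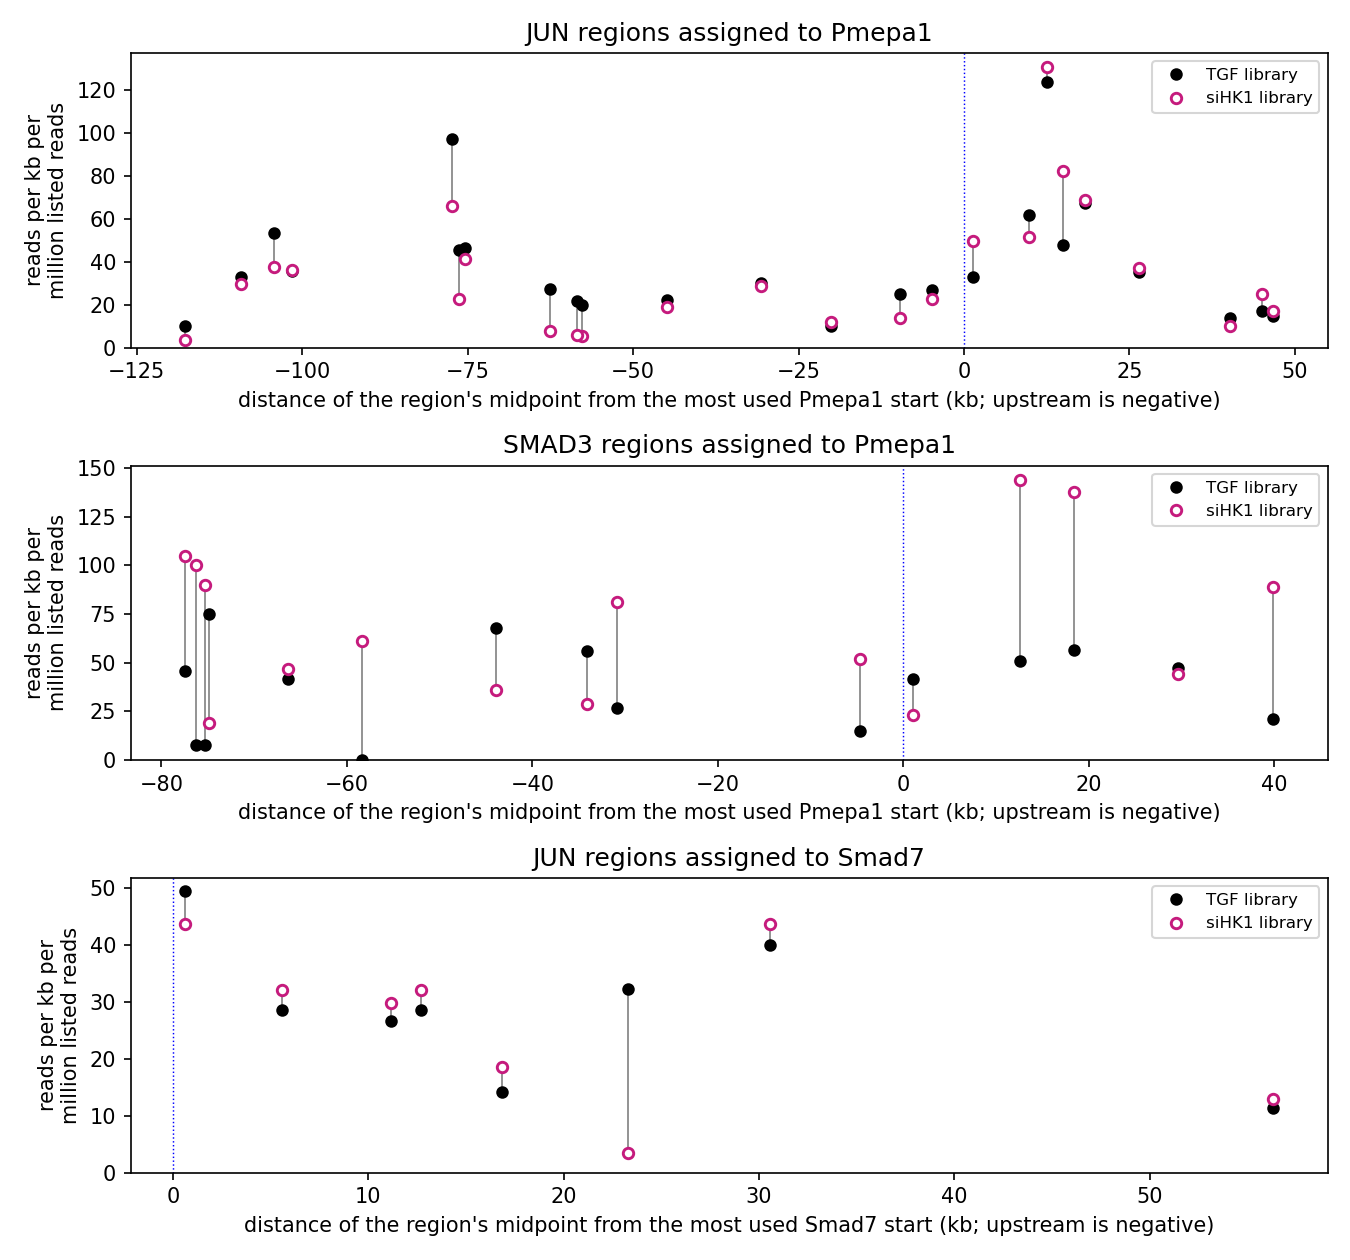
Each pair of circles is 1 listed region, with reads per kb per 1000000 listed reads on the y axis in the TGF library (filled) and the siHK1 library (open), and the distance of its midpoint from the gene start most used in the tables on the x axis. The upper panels show c-JUN and SMAD3 at Pmepa1 and the lower panel c-JUN at Smad7. At Pmepa1 the intronic regions with 481 and 331 c-JUN reads in TGF are level, SMAD3 is higher in siHK1 at the same sites, and at Smad7 a single region stands at 32.3 in TGF and 3.41 in siHK1.

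The remaining c-JUN regions past 2-fold with at least 20 reads were scattered. In Ski a region of an intron (chr4:155178296-155178973) had 69 and 16 reads (log2 ratio -1.18, -2.10 to -0.42). In Smad6 a region over an exon (chr9:63989225-63989526) had 41 and 8 (-1.40, -2.77 to -0.35). In Smurf1 a region of an intron (chr5:144931875-144932127) had 20 and 27 reads (1.32, 0.44 to 2.24) and was the only one higher in siHK1. Every one of the 8 Smurf2 regions lay above 0, from 0.04 to 1.34, the highest on 5 and 7 reads. Of these, 3 lie in a stretch listed with every antibody, and the interval of the Smurf2 sum included 0.

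SMAD3, the factor that TGF-β receptors activate directly, was the antibody with most members apart from equality, with 6 of 9 gene sums higher in the siHK1 library beyond counting error and none lower. Scaled to shared peaks these were 5 higher, without Tgif1, and 1 lower, Bambi. Among genes with at least 20 reads this was 5 of 8 members, beside 22.7% of all such genes higher and 18.1% lower. Pmepa1 had 122 SMAD3 reads in the TGF library and 188 in the shallower siHK1 library, a log2 ratio of 1.12 (0.78 to 1.46). Ski had 32 and 50 (1.13, 0.47 to 1.83), Smad7 48 and 58 (0.77, 0.19 to 1.35, but -0.07 within 10 kb of a start), Skil 45 and 52 (0.70, 0.10 to 1.31) and Smurf1 49 and 56 (0.69, 0.11 to 1.27). Raw counts were higher in siHK1 at each of these genes, but by less. Without scaling the log2 ratios were 0.62 at Pmepa1, 0.64 at Ski, 0.27 at Smad7, 0.21 at Skil and 0.19 at Smurf1. Leaving out the scaling shifts each ratio by -0.49. At all of these but Pmepa1, and at Tgif1, that shift is larger than the lower interval end, so their calls rest on the scaling. Tgif1 had the highest ratio, 1.94 (0.08 to 4.60), but on 3 and 9 reads. Smad6, with 101 and 80 reads (0.16, -0.28 to 0.60), and Smurf2, with 198 and 157 (0.16, -0.15 to 0.47), had intervals that included 0, as did Bambi with 103 and 53 (-0.46, -0.97 to 0.03). The calls of Smurf2 and Bambi change without the regions listed with every antibody, as given below. The median over the 8 members with at least 20 reads was 0.69, beside 0.00 over all 5585 such genes, and Pmepa1 and Ski passed 2-fold higher where 15.0% of those genes did and none passed lower where 11.5% did.

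The regions behind these sums were thin, with a median of 5 reads in the TGF library and 6 in siHK1. Of 75 member regions, 31 were past 2-fold higher in siHK1 and 13 lower, beside 32.8% and 31.7% of all listed regions. Only 10 had at least 20 reads in 1 library. Of these, 4 were past 2-fold higher and none lower, beside 16.4% and 16.1% of all such regions. A pair lay in Pmepa1 introns, and both were marked as peaks in both libraries. The region at 11.7 kb (chr2:173263491-173264462) had 28 and 56 reads (log2 ratio 1.48, 0.82 to 2.20), and the region at 17.7 kb (chr2:173257779-173258469) 22 and 38 (1.27, 0.49 to 2.11). The others lay at promoters and were marked as peaks in siHK1 alone. The Skil region (chr3:31093842-31095250), over the start site, had 23 and 34 reads (1.05, 0.25 to 1.89), which fell short of 2-fold when scaled to shared peaks (0.96) or with the authors' normalised values (0.94). The Smurf1 region (chr5:144964846-144965471), in an intron just inside the start, had 12 and 27 (1.63, 0.64 to 2.78). The Smad6 promoter fell short of 2-fold with 21 and 28 reads (0.90, 0.04 to 1.80).

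Thinner SMAD3 regions went both ways. A Smurf2 region 9.46 kb upstream had 0 reads in TGF and 13 in siHK1, at least 6.11-fold higher. The SMAD3 region of Smad7 with most reads, in an intron, had 4 and 14 reads (log2 ratio 2.18, 0.63 to 4.36), and that of Ski 11 and 14 (0.83). At Ski 6 of 7 regions lay above 0, and the seventh, with 6 and 4 reads, was at -0.04. At Bambi 6 of 8 lay below 0, among them regions with 15 and 1 reads (log2 ratio -2.87) and 20 and 8 reads (-0.78). At Pmepa1 10 of 15 lay above 0.

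Where c-JUN and SMAD3 shared a site, the SMAD3 ratios of these genes were near those of all such sites. Of the 75 SMAD3 member regions, 37 (49.3%) overlapped a c-JUN region by at least 1 base, beside 23.0% of all SMAD3 regions, and 35 of the 102 c-JUN member regions (34.3%) overlapped SMAD3, beside 18.1% of all. The 37 regions had a median SMAD3 log2 ratio of 1.03 and 51.4% of them were past 2-fold higher. All 13458 SMAD3 regions that overlapped c-JUN had a median of 0.96 with 48.1% past 2-fold higher. The 38 member regions without c-JUN had a median of -0.14 and all SMAD3 regions without c-JUN -0.35. The c-JUN ratios at the same 37 sites had a median of 0.08. In Pmepa1 the intronic SMAD3 sites that were higher in siHK1 lay on level c-JUN sites, and the c-JUN region at 58.2 kb with 34 and 5 reads overlapped a SMAD3 region with 0 and 8, at least 3.76-fold higher. At the Smurf1 promoter, SMAD3 had 12 and 27 reads where c-JUN had 135 and 51 (log2 ratio -0.50).

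**Figure D3:**
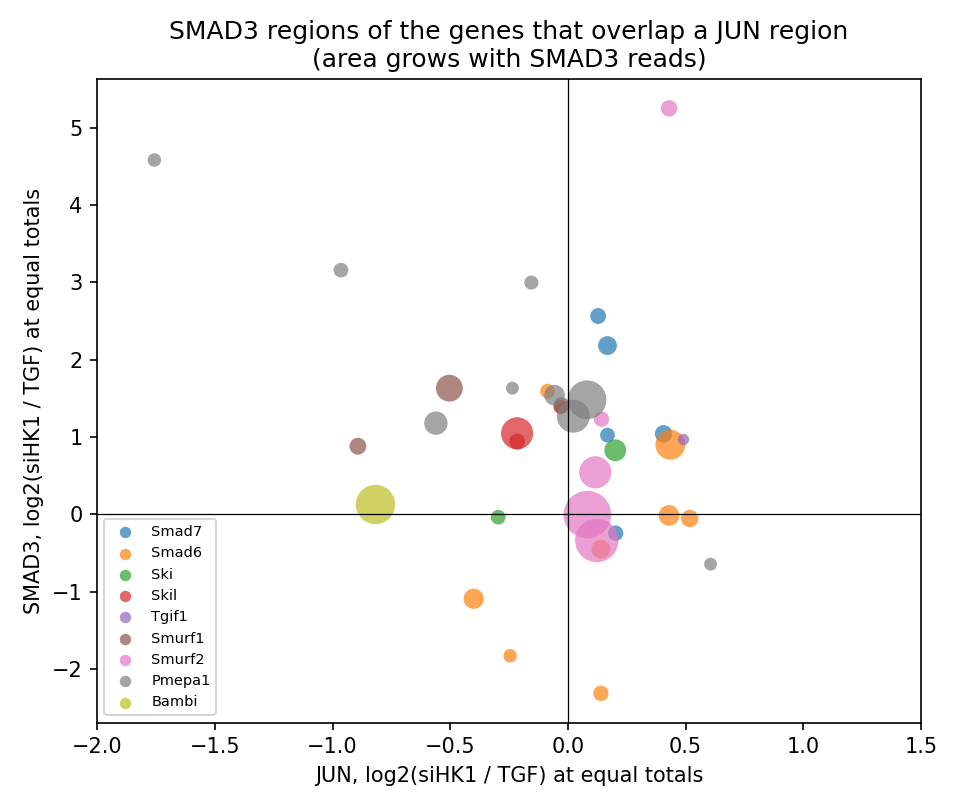
Each circle is a SMAD3 region of the 9 genes that overlaps a c-JUN region, with the c-JUN log2 ratio of siHK1 to TGF on the x axis and the SMAD3 log2 ratio on the y axis, both at equal totals. Circle area grows with the SMAD3 reads of both libraries. Of 37 circles, 26 lie above 0 on the SMAD3 axis, while the c-JUN values split into 20 above and 17 below 0.

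NFATC2, a calcium-regulated factor that often partners AP-1, was thin at these genes, and no gene sum differed between the libraries beyond counting error. There were 74 regions for 8 genes and none for Tgif1. Bambi had 133 reads in TGF and 69 in siHK1 (log2 ratio -0.24, -0.69 to 0.18), Smurf2 189 and 103 (-0.17, -0.54 to 0.18), Smad6 120 and 56 (-0.39, -0.88 to 0.07) and Pmepa1 87 and 62 (0.21, -0.28 to 0.70). Smurf1 had 50 and 33 (0.11), Smad7 42 and 27 (0.07), Ski 40 and 24 (-0.03) and Skil 35 and 14 (-0.59, -1.63 to 0.31). All 8 intervals included 0, where 10.0% of all genes with at least 20 reads lay lower and 10.3% higher. No gene sum passed 2-fold, beside 7.48% lower and 5.60% higher of all genes with at least 20 reads.

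Among single NFATC2 regions 13 of 74 were past 2-fold lower and 26 higher, beside 25.6% and 38.4% of all listed regions. Of the 8 with at least 20 reads none passed either way, beside 14.3% and 1.62%. All 8 lay below 0, from -0.95 to -0.21, with a median of -0.67 beside -0.33 over all such regions. At most of the 8 only the deeper TGF library reached 20 reads, so this minimum itself favours values below 0. Regions listed with every antibody were among them, at Smurf2 (90 and 40, 57 and 30 reads), Bambi (100 and 53) and Smad6 (26 and 8). The others included the Smad6 promoter with 35 and 14 reads (log2 ratio -0.59, -1.63 to 0.31) and the Pmepa1 intron site at 12.1 kb with 21 and 7 (-0.82), which lies on the SMAD3 region with 28 and 56 reads. The NFATC2 regions with most reads at the remaining genes were thinner, with 17 and 6 reads at the Ski promoter, 12 and 4 at Skil, 11 and 6 at Smad7 and 5 and 10 at the Smurf1 promoter.

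**Figure D4:**
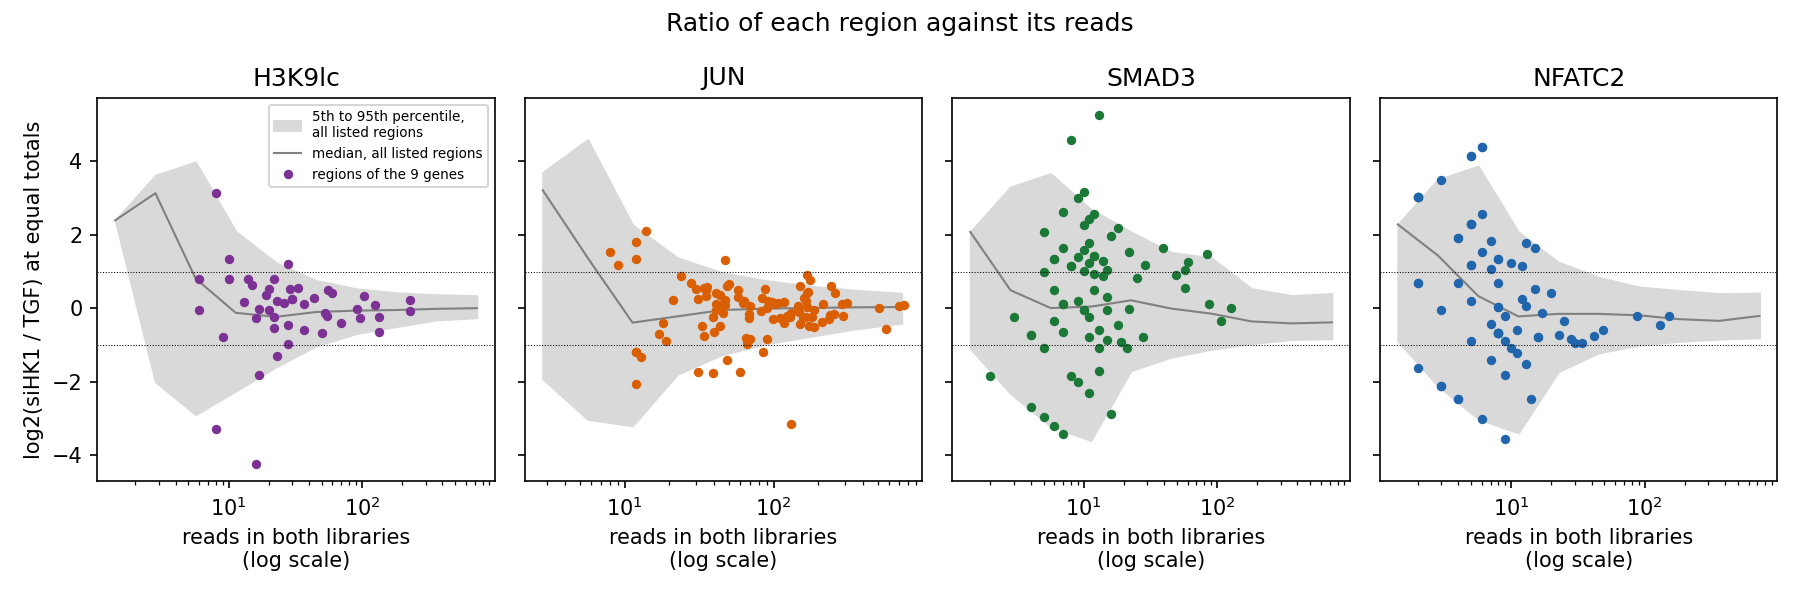
Each coloured point is 1 region of the 9 genes, with its reads in both libraries on the x axis (log scale) and its log2 ratio of siHK1 to TGF at equal totals on the y axis, 1 panel per antibody. Grey shows the 5th to 95th percentile and the median of all listed regions with as many reads, and dotted lines mark 2-fold. Most points lie within the grey band, and the c-JUN region of Smad7 at -3.15 lies far below it.

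Some regions were listed with every antibody, and they weighed on the sums of Smurf2 and Bambi. A Bambi region 131 kb downstream began at the same base, chr18:3638871, in all 4 tables, and had 49 and 38 SMAD3 reads and 100 and 53 NFATC2 reads. It held 47.6% of the SMAD3 reads of Bambi in TGF and 71.7% in siHK1, and 75.2% and 76.8% of its NFATC2 reads. A stretch 23 to 28 kb upstream of Smurf2, all of it masked as repeat in the RefSeq sequence, held 98.0% and 93.2% of the H3K9lc reads of that gene and 86.4% and 76.4% of its SMAD3 reads. Without these regions Bambi had 54 and 15 SMAD3 reads and was past 2-fold lower in siHK1 (log2 ratio -1.32, -2.29 to -0.51). Smurf2 then had 27 and 37 SMAD3 reads and was higher beyond counting error (0.94, 0.19 to 1.72), and its H3K9lc ratio was 1.60 (-0.07 to 3.59) on 5 and 9 reads. A Smad6 region 120 kb away was shared as well and moved its sums little. Leaving such regions out was not planned and was not done over all genes, so these changed calls have no share beside them.

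SMAD sites were searched on both strands. CAGAC lay in the central 200 bases of 39 of 75 SMAD3 member regions (52.0%), beside 38.2% of all SMAD3 regions, and in 47 of 102 c-JUN member regions (46.1%), beside 44.5%. In the NFATC2 member regions its share was 59.5%, beside 38.2% of all. The AP-1 site TGANTCA lay in 20.6% of the c-JUN member regions and 29.2% of all, and in 5.33% and 6.70% for SMAD3. The NFAT core GGAAA lay in 35.1% of the NFATC2 member regions and 42.9% of all. The palindrome GTCTAGAC, which lies in 0.208% of all SMAD3 windows, was in 1 of the 75, the Pmepa1 intron window printed above, and it was in 2 of 102 c-JUN windows, beside 0.384% of all. Whole regions were searched only where past 2-fold with at least 20 reads, and no share over all whole regions was counted. Among these it also occurred once in each of the c-JUN regions 58.2 kb upstream of Pmepa1 and 22.8 kb downstream of Smad7. Of the 5 members with a RefSeq promoter sequence here (250 bases before to 50 after the start), Smad6 held 1 GTCTAGAC, found in 0.213% of 32851 promoters, and Smurf1, Smurf2 and 1 of 5 Tgif1 promoters held 2 CAGAC each, a motif found in 49.6% of promoters. A match of letters is a description and not evidence of binding.

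The other genes of the pathway, on a list of 19 ligands, receptors and signalling SMADs and a list of 17 targets, were counted the same way. For c-JUN, no gene of the first list and 1 of 16 targets with at least 20 reads was past 2-fold, Fn1 (fibronectin) with 43 and 7 reads, beside 2.53% of all genes lower and 0.846% higher. Among those with 100 reads, c-JUN was lowest at Tgfb1, with 110 and 35 reads (log2 ratio -0.75, -1.35 to -0.20), and highest at Smad4, with 162 and 123 (0.50, 0.14 to 0.84). For SMAD3, 3 of 11 genes of the first list and 5 of 9 targets were past 2-fold higher and none lower, beside 15.0% and 11.5% of all genes. With 100 reads they ran from Smad3 itself, 98 and 111 reads (0.67, 0.27 to 1.08), to Col1a1, a collagen gene, with 62 and 105 (1.25, 0.79 to 1.73). For NFATC2, 1 of 8 and 1 of 6 were past 2-fold higher and none lower, beside 5.60% and 7.48% of all genes, and the only gene with 100 reads was Smad3, with 115 and 58 (-0.28). For H3K9lc, none of 8 and 1 of 7, Tgfbi with 20 and 0 reads, were past 2-fold lower and none higher, beside 2.25% and 0.71% of all genes, and with 100 reads values ran from Ltbp1, which stores latent TGF-β (-0.41), to Smad2 (0.26). Against NC, 1 of 8 was lower and 2 higher in the first list and 3 of 6 targets higher, beside 5.93% lower and 19.7% higher of all genes, with Smad2 lowest at 12 and 120 reads (-1.05) and Tgfbr3 highest at 4 and 186 (1.05). These counts hold at equal totals only. Scaling to shared peaks shifts every ratio against NC by 0.83, so Smad2 is then not past 2-fold. The shares of all genes become 0.409% lower and 54.3% higher, and the lists were not recounted.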

How the data were processed

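CUT&Tag libraries of primary mouse cardiac fibroblasts were analysed from 5 deposited tables, 1 per pair of libraries. Per the submitters' processing notes reads were aligned with BWA 0.7.12 to mm10. The study's methods name Bowtie2, MACS2 and GRCm39. Of the transcripts found in GENCODE vM21 (GRCm38), 99.8% had the same coordinates in each table, so GRCm38 is used. The tables hold raw read counts per region as the authors obtained them, an authors' mark of 0 or 1 for a called peak, and the authors' normalised log2 value of each library. Their log2 ratios, standard errors, test statistics, p-values, adjusted p-values and calls are the authors' comparisons and were not used. A region was listed when a peak was called in at least 1 library, apart from 55 to 248 regions a table, and it carries the authors' nearest gene, whatever the distance. The knockdown could not be checked, since no RNA or protein was measured in these libraries. The H3K9lc library titled SI was read as siHK1 from the table its label names. A further library titled TGF, whose labels name no antibody, was not used here.

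Counts were scaled to 1000000 reads in listed regions after 0.5 was added, and summed per gene as raw counts. These totals leave out reads elsewhere, and the spike-in named in the methods was not used here. Past 2-fold means an absolute log2 ratio of at least 1. Counts over regions with at least 20 reads in 1 library were added after seeing the data, and this minimum admits more regions from the deeper library. Sums without the regions listed with every antibody were not planned either. The exact (Clopper-Pearson) 95% intervals allow for counting error alone and treat PCR duplicates as separate molecules. The study had 1 library per condition, so no test was run. The members and gene lists were chosen with earlier results of these data known. The rule named all gene sums, the region with the highest mean level per gene and table, promoter regions, and single regions past 2-fold with at least 20 reads. Those of SMAD3 and NFATC2 promoters and of NC under 20 reads are given in part, and some regions were named after their values were seen. Of the pathway lists, the lowest and highest gene with 100 reads were named. Alternatives were scaling to regions with a peak in both libraries, no scaling, the authors' normalised log2 values, a pseudocount of 1, regions above the median level, and regions within 10 kb of a start. The method was tested on simulated data. Python 3.11.15, pandas 2.3.3 and SciPy 1.17.1 were used.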

Additional observations from a re-analysis of the deposited data

How the results depend on the processing

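No paired analysis was possible because there was a single library for every condition with a given antibody, so none could be left out either. Scaling to regions with a peak in both libraries shifted every ratio by -0.09 to -0.03 in the siHK1 tables and by 0.83 in the table of TGF over NC, where member regions past 2-fold higher became 19. Without scaling the deeper library dominated by construction, and member regions past 2-fold lower and higher were 17 and 1 for H3K9lc (44.0% and 4.94% of all listed regions), 43 and 1 for c-JUN (45.9% and 2.0%), 21 and 16 for SMAD3 (40.1% and 23.5%), 32 and 17 for NFATC2 (37.6% and 26.0%), and 1 and 38 for TGF over NC (2.47% and 92.2%). Of 40 gene sums 27 then left their counting interval, and Smad7 turned from -2.25 to 2.07 in TGF over NC. With regions above the median level only, fewer regions entered, and the counts were 0 and 1 for H3K9lc (4.15% and 3.22% of all such regions), 3 and 1 for c-JUN (3.0% and 1.73%), 7 and 30 for SMAD3 (19.3% and 35.6%), 7 and 19 for NFATC2 (23.9% and 34.9%) and 4 and 5 for TGF over NC (26.5% and 14.4%). With at least 20 reads in 1 library, they were 0 and 0 for H3K9lc, 6 and 1 for c-JUN, 0 and 4 for SMAD3, 0 and 0 for NFATC2, and 0 and 7 for TGF over NC. The authors' normalised log2 values gave 5 lower and 21 higher for TGF over NC, and a pseudocount of 1 gave 14 and 3. All 40 gene sums stayed within their counting intervals with a pseudocount of 1 and with the scaling to shared peaks. Within 10 kb of a start site 11 of 29 gene sums left their interval, among them SMAD3 at Smad7 (-0.07) and Smurf2 (1.83).

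The number of reads limits SMAD3, NFATC2 and the NC library most, where a single region often rests on under 10 reads. A loss or gain common to all regions cannot be seen at equal totals.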

Other observations

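The regions of the 9 genes differed from the rest of their tables in base composition. Their median G+C content was 52.6% for SMAD3 and 51.8% for NFATC2, against 46.2% and 46.0% over all listed regions, and 52.9% against 48.6% for c-JUN. The H3K9lc regions of these genes were 41.2% repeat-masked at the median, beside 61.2% over all H3K9lc regions. In the RefSeq sequence 21 of 47 (44.7%) were mostly repeat-masked, beside 55.8% of all H3K9lc regions. Sites of these genes also recurred between several antibodies more often than listed regions in general. NFATC2 member regions overlapped c-JUN in 33 of 74 cases (44.6%, beside 16.7% of all NFATC2 regions), and c-JUN member regions overlapped NFATC2 in 29.4% of cases (beside 15.4%). H3K9lc member regions overlapped c-JUN in 10 of 47 cases (21.3%, beside 5.92% of all). Seen from the factors, overlap with H3K9lc was nearer the share of all regions. It was 9.33% for SMAD3 (beside 8.36%), 8.82% for c-JUN (beside 6.07%) and 10.8% for NFATC2 (beside 7.24%). The part of base composition and of the repeat stretch near Smurf2 in these shares was not tested.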
